A study of Mus musculus with 19 samples.

Results

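Co-stimulation and checkpoint genes were followed across the mouse brain after bone marrow transplantation. The 10 genes, taken by name from a list of ligands, receptors and regulators through which antigen-presenting cells adjust lymphocytes, were Cd80, Cd86, Cd40, Cd274, Pdcd1lg2, Vsir, Lgals9, Havcr2, Cd72 and Ptpn22. They are 10 of 17340 genes in the deposited tables. All 10 were listed and tested in the sorted-cell table of 13783 genes. The hippocampus table of 15634 genes lists 7 of them, and 6 were tested there, since Ptpn22 stayed under the limit on low values. Values of Cd80, Cd40 and Pdcd1lg2 in hippocampus were not analysed here.

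All recipients had total-body irradiation of 1100 cGy in split doses and 5000000 T-cell-depleted (TCD) marrow cells. Mice with graft-versus-host disease (GVHD), in which donor T cells attack the recipient's tissues, were also given 500000 splenic T cells. Cells sorted on day 70 gave 6 libraries of donor macrophages from GVHD mice, labelled as derived from bone marrow, 4 of microglia of host origin from GVHD mice, and 3 of microglia of host origin from TCD mice. On day 80 whole hippocampus was taken from GVHD mice (3 libraries) and TCD mice (3 libraries). The labels give no strain, sex, age or sorting gate, and do not say whether a library is 1 mouse or a pool, so p-values measure the spread between these libraries, which may in part be technical. Donor cells of TCD mice were not analysed here.

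A T cell that meets antigen on a presenting cell also reads that cell's surface. CD80 and CD86 bind CD28, which activates, and CTLA-4, which restrains. CD40 receives help from T cells through CD40 ligand and raises the presenting cell's ability to activate them. PD-L1 (encoded by Cd274) and PD-L2 (Pdcd1lg2) restrain T cells through PD-1, VISTA (Vsir) is an inhibitory member of the same B7 family, and galectin-9 (Lgals9) is a ligand of TIM-3 (Havcr2). CD72 is an inhibitory co-receptor known best from B cells, and PTPN22 is a phosphatase that dampens antigen-receptor signalling and also acts in myeloid cells. Microglia are the resident macrophages of the brain, and irradiation with marrow transplantation lets marrow-derived macrophages enter it.

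Promoters are shown for the 3 genes with the widest differences between donor and GVHD host cells (Cd72, Ptpn22 and Havcr2) and for Cd274, whose level in host cells is described at length further on. Each line holds the 300 bases from 250 before to 50 after the gene's start in RefSeq, build GRCm38.p6, 5′ to 3′ on the gene's strand. Capitals mark a match to any of 5 short motifs searched on both strands. Cd72 lies at chr4:43454577-43454876 on the minus strand, Ptpn22 at chr3:103859545-103859844 on the plus strand, Havcr2 at chr11:46454681-46454980 on the plus strand and Cd274 at chr19:29367188-29367487 on the plus strand.
Cd72: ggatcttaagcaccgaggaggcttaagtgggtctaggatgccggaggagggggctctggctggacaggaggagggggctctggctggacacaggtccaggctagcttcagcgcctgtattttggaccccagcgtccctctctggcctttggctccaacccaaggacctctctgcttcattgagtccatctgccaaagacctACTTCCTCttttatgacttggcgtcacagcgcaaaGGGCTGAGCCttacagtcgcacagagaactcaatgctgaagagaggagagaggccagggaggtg
Ptpn22: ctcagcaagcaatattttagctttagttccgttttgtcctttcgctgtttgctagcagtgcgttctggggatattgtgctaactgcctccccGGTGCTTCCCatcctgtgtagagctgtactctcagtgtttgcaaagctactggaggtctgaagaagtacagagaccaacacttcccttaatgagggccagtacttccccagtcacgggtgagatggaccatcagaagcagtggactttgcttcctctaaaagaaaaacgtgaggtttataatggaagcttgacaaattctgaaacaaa
Havcr2: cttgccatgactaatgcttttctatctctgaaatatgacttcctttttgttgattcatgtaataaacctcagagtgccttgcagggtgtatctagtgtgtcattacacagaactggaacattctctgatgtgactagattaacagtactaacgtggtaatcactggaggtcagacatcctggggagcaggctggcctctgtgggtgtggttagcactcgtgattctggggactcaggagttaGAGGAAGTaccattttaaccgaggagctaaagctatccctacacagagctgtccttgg
Cd274: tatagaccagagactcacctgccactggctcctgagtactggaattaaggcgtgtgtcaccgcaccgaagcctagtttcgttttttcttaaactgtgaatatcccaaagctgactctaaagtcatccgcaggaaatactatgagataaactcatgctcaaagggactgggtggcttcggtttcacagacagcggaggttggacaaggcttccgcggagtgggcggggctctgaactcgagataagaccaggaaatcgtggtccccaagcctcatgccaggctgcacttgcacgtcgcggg

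The motifs were GAGGAAGT, a core bound by the myeloid factor PU.1, which 3.20% of 32851 mouse promoter windows of this length hold, TTCNNNGAA, the interferon-gamma activated site (8.30%), the interferon-stimulated response element as a pair of GAAA separated by any 2 bases (3.44%), the general form of an NF-kB site as GGG and CC separated by any 5 bases (50.8%), and TTGCNNAA, read by C/EBP factors (10.8%). The PU.1 core was found in Cd72, 49 bases before the start, and in Havcr2, 8 bases before it. Of these 2 genes, Cd72 was higher and Havcr2 lower in donor cells, and a part of the motif in this was not tested. Cd72 and Ptpn22 also hold 1 NF-kB form each. No capital stands in the Cd274 window, which says only that these letters are not in it. Windows were found for 8 of the 10 genes, and the Lgals9 window held the interferon-stimulated element at 2 places and the NF-kB form at 1. A second window of Ptpn22 held the interferon-gamma activated site. Matches did not overlap each other, and no binding was measured.

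The labelled cell types were checked first, over 10 markers of each kind, as summed normalised counts. Macrophage and monocyte markers such as Lyz2 and Ms4a7 summed to 12300 to 21070 in donor libraries, 529 to 1065 in GVHD host libraries and 345 to 1052 in TCD host libraries. Most of that sum was Lyz2, at 10510 to 18390 in donor, 459 to 909 in GVHD host and 285 to 717 in TCD host libraries. All 10 were called higher in donor than in GVHD host cells, where 19.4% of all tested genes were. Microglia markers such as P2ry12 and Sall1 summed to 8009 to 12600 in donor libraries, 40280 to 50200 in GVHD host libraries and 48550 to 59900 in TCD host libraries. Sall1, a defining factor of microglia, was at 3.33 to 14.4 in donor libraries against 263 to 297 in GVHD host libraries and 274 to 401 in TCD host libraries. Among B cell genes, Pax5, Ebf1 and Fcer2a were not analysed here, and 5 further listed genes summed to 659 to 773 in donor libraries, 620 to 866 in GVHD host libraries and 646 to 893 in TCD host libraries. Most of that sum was Ighm, while Cd79a and Ms4a1 did not exceed 5.67 in any sorted library. Cd79b ran from 17.1 to 26.9 in donor, 23.5 to 43.2 in GVHD host and 32.7 to 45.9 in TCD host libraries. Cd22 ran from 45.2 to 137 in donor, 13.97 to 25.6 in GVHD host and 9.60 to 29.0 in TCD host libraries. T and NK cell markers (12 of 14 in the table) summed to 6.00 to 48.8 in donor, 13.6 to 43.7 in GVHD host and 9.30 to 20.0 in TCD host libraries. Neutrophil markers (7 of 8 in the table) summed to 19.8 to 608 in donor, 0.38 to 19.6 in GVHD host and 1.81 to 111 in TCD host libraries. The part of cell mixture in the results was not tested, and in bulk samples fewer cells of a type and less RNA per cell cannot be told apart. The sorted libraries held an estimated 7901517 to 35842451 reads and the hippocampus libraries 16673565 to 18548357. The labels of TCD host library 1 disagree: its title says TCD and its description Syn, a term they do not explain. That library summed highest of its group for macrophage and monocyte markers (1052 against 345 and 595) and for neutrophil markers (111 against 17.3 and 1.81). F13a1 was at 146 there against 10.6 and 5.43, whereas Ccr2 and Plac8 were the lowest of that group. Results of the members against TCD host cells are therefore also given without TCD host library 1 where it changes them. Genes and counts of the lists further on are given only with that library included.

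Of the 10 genes, 3 were higher (Ptpn22, Cd72, Cd40) and 4 lower (Havcr2, Cd86, Vsir, Lgals9) in donor macrophages than in host microglia of GVHD mice, by limma across all tested genes at an adjusted p under 0.05. Across all 13086 tested genes 38.6% were called in this comparison, 19.4% higher and 19.2% lower. The median log2 fold change of the 10 was 0.34 against 0.04 over all tested genes, and their median absolute log2 fold change was 1.13 against 0.35. Groups did not overlap for 5 of the 10 and for 27.9% of all tested genes. Against host microglia of TCD mice 4 genes were higher (Ptpn22, Cd72, Cd40, Cd274) and 3 lower (Havcr2, Vsir, Cd86), where 37.0% of all tested genes were called, 18.4% higher and 18.6% lower. Groups did not overlap for 6 of the 10 and for 29.5% of all tested genes. There the median was 0.93 against -0.01 over all tested genes, and the median absolute log2 fold change 1.498 against 0.35. Both comparisons use the same donor libraries and are not independent. No member was called between host microglia of GVHD and TCD mice, where 0.107% of all tested genes were called, nor between GVHD and TCD hippocampus, where 0.479% were.

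**Figure D1:**
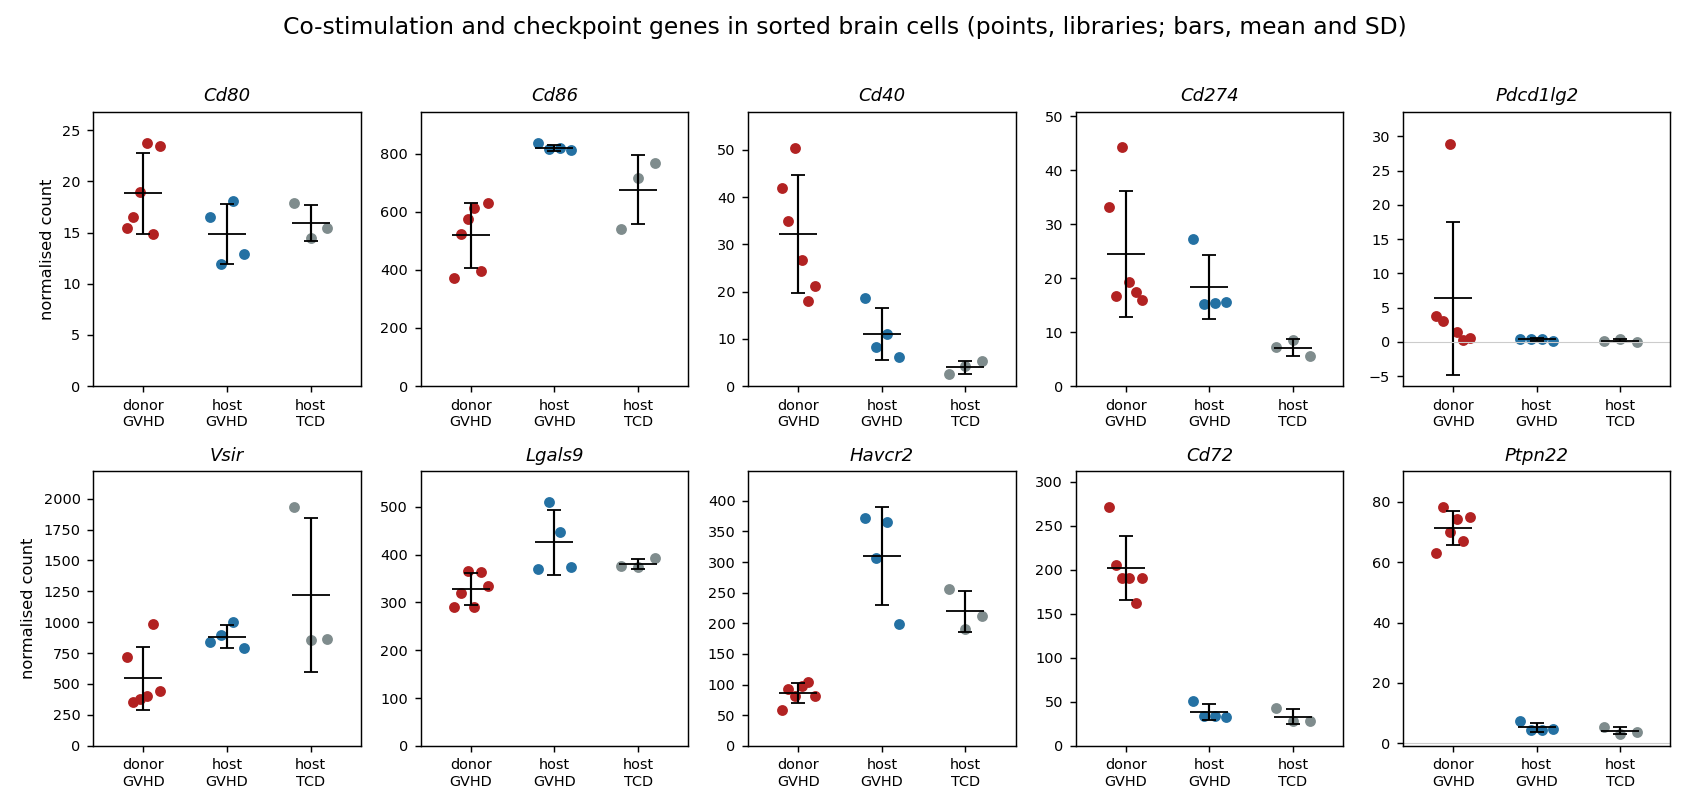
Normalised counts (y axis, from 0 or just below it) of the 10 genes in donor macrophages of GVHD mice, host microglia of GVHD mice and host microglia of TCD mice, with a point per library and bars for mean and SD. Donor libraries of Ptpn22 and Cd72 lie above every host library and those of Havcr2 below every host library, while 1 donor library alone carries the high mean of Pdcd1lg2.

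The classical CD28 ligands differed from each other in level and in direction. Cd86 (chr16:36603869-36666081, minus strand) was among the most abundant members, with normalised counts of 372 to 631 (median 549) in donor libraries, against 835, 815, 818 and 812 in GVHD host libraries and 542, 717 and 768 in TCD host libraries. The GVHD host libraries lay close together, above every donor library and every TCD host library. Donor macrophages had a fitted log2 fold change of -0.72 ± 0.14 (SE) against GVHD host microglia, an adjusted p of 0.00114 by limma, and all 6 donor libraries were lower. Against TCD host microglia the log2 fold change was -0.45 ± 0.15, with a limma adjusted p of 0.0348 and overlapping groups. That second call was lost without donor library 1 or 2, or any 1 TCD host library (library 1: -0.50, adjusted p 0.0502), with adjusted p-values of up to 0.142, and with a block for the replicate number of the titles (-0.42, adjusted p 0.0531) or of the descriptions (-0.47, adjusted p 0.0986), and it held in 19 of 29 alternatives. GVHD host microglia lay 0.27 ± 0.16 above TCD host microglia on the log2 scale, a limma adjusted p of 0.826. The 3.57% of all tested genes that were higher in GVHD hosts without overlap give the background of that separation.

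Cd80 (chr16:38455561-38496335, plus strand), on the same chromosome as Cd86 with 1.79 Mb between the genes, stood far lower. Its normalised counts were 14.8 to 23.8 (median 17.7) in donor libraries, against 16.5, 11.95, 18.0 and 12.9 in GVHD host libraries and 17.9, 14.4 and 15.5 in TCD host libraries. The groups overlapped in every pair. The fitted log2 differences were 0.32 (95% interval -0.06 to 0.69) for donor against GVHD host cells, 0.21 (-0.20 to 0.63) for donor against TCD host cells and -0.10 (-0.55 to 0.34) for GVHD against TCD host cells, none called. Per exonic kilobase Cd86 averaged 142 in donor cells, 224 in GVHD host cells and 184 in TCD host cells, while Cd80 averaged 5.08 in donor cells, 4.01 in GVHD host cells and 4.30 in TCD host cells.

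Cd40 (chr2:165055627-165072948, plus strand), the receptor for T cell help, was highest in donor cells and lowest in TCD host cells. Its normalised counts were 18.0 to 50.4 (median 30.8) in donor libraries, against 18.6, 8.22, 11.1 and 6.24 in GVHD host libraries and 2.51, 4.16 and 5.31 in TCD host libraries. Donor and TCD host libraries did not overlap, nor did GVHD and TCD host libraries, while the highest GVHD host library passed the lowest donor library. The log2 fold change of donor cells was 1.51 ± 0.32 against GVHD host cells (adjusted p 0.00230 by limma) and 2.74 ± 0.35 against TCD host cells (adjusted p 5.22e-05). Both calls held in all 29 alternatives, with fold changes of 1.23 to 1.79 and 2.05 to 3.17 on the log2 scale. Between GVHD and TCD host cells the log2 difference was 1.24 ± 0.38, which passed an unadjusted threshold (p 0.00641) but not the adjustment over all genes by limma (adjusted p 0.370). GVHD host library 1, highest for Cd40, was also highest in that group for T and NK cell markers, at a summed 43.7. Without that library the log2 difference was 0.94, and without TCD host library 1 it was 0.77.

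Cd274 (chr19:29367455-29388095, plus strand), which encodes PD-L1, was higher in donor macrophages than in TCD host microglia, and its mean in GVHD host microglia lay between those of the other groups without passing the test against either. Its normalised counts were 16.1 to 44.3 (median 18.4) in donor libraries, against 27.4, 15.3, 15.4 and 15.7 in GVHD host libraries and 7.31, 8.57 and 5.55 in TCD host libraries. Every library of GVHD mice exceeded every TCD host library, and donor and GVHD host libraries overlapped. The log2 fold change of donor cells was 1.64 ± 0.29 against TCD host cells (adjusted p 5.93e-04 by limma), called in all 29 alternatives. Against GVHD host cells it was 0.37 with a 95% interval of -0.19 to 0.93 (limma adjusted p 0.282). GVHD host cells differed from TCD host cells by 1.27 ± 0.30 on the log2 scale, with an unadjusted p of 0.00122 and a limma adjusted p of 0.167. This adjusted p ran from 0.0290 to 0.780 over the 29 alternatives. It passed the threshold when donor library 3 was left out (log2 difference 1.28, adjusted p 0.0290), a library that belongs to neither group but enters the shared estimate of spread. Library 1 of each sorted group carries another API number in its title than the remaining 10 libraries, and the labels do not explain the number. Among those 10 libraries the difference was 1.053 (adjusted p 0.689), and without TCD host library 1 it was 1.07.

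Pdcd1lg2 (chr19:29410919-29471161, plus strand), for PD-L2, lies 22.8 kb beyond Cd274 and was the member with the widest scatter. Its normalised counts in donor libraries 1 to 6 were 3.82, 3.04, 28.9, 1.45, 0.30 and 0.55, against 0.35, 0.44, 0.45 and 0.11 in GVHD host libraries and 0.09, 0.36 and 0 in TCD host libraries. Donor library 3 alone held most of the signal, and the remaining donor libraries reached down into the host range. The log2 fold changes, on the log2(value + 1) scale, which understates changes of low genes, were 1.51 ± 0.69 against GVHD host cells (limma adjusted p 0.101) and 1.75 ± 0.76 against TCD host cells (adjusted p 0.0915). Neither was called. Without donor library 3 they were 0.93 (adjusted p 0.0514) and 1.18 (adjusted p 0.0272, called), and with a block for the replicate number of the titles the comparison with GVHD host cells gave 2.21 (adjusted p 0.0119, called) and that with TCD host cells gave 2.69 (adjusted p 0.00819, called). With a block for the number of the descriptions they were 1.56 (adjusted p 0.0906) and 1.41 (adjusted p 0.180), neither called. The antisense gene A930007I19Rik overlaps Pdcd1lg2 and was at 3.66 ± 0.88 (SD, n = 6) in donor cells, against 7.44 ± 2.99 (n = 4) in GVHD host cells and 5.22 ± 2.84 (n = 3) in TCD host cells, lower in donor than in GVHD host cells (-0.88 ± 0.22).

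Donor library 3 was also the highest library for Cd274 and Cd40, and the highest donor library for the summed dendritic cell markers. The sum of 9 dendritic cell markers, leaving out Siglech, which microglia also express, was 417 in that library and 105 to 223 in the remaining donor libraries, against 38.7 to 69.3 in GVHD host libraries and 36.1 to 50.8 in TCD host libraries. Ccr7, a receptor of migrating dendritic cells, was at 139 in donor library 3 and 1.26 to 48.2 in the remaining donor libraries. With Cd209a, at 151, it made up most of the sum in donor library 3. Of the 9 markers, Ccr7, Cd209a, Flt3 and Irf4 were the highest there among donor libraries, whereas Xcr1 (8.22), Clec9a (10.7), Zbtb46 (13.1) and Itgax (83.3) were the highest in donor library 1, and Batf3 in donor library 4. Donor library 1, next highest for Cd274, Pdcd1lg2 and Ccr7, had the highest neutrophil markers (summed 608) and T and NK cell markers (48.8). The part of these cells in the ligand values was not tested. Without donor library 3 the log2 fold changes of Cd40 and Cd274 against TCD host cells were 2.60 and 1.45, both still called.

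**Figure D2:**
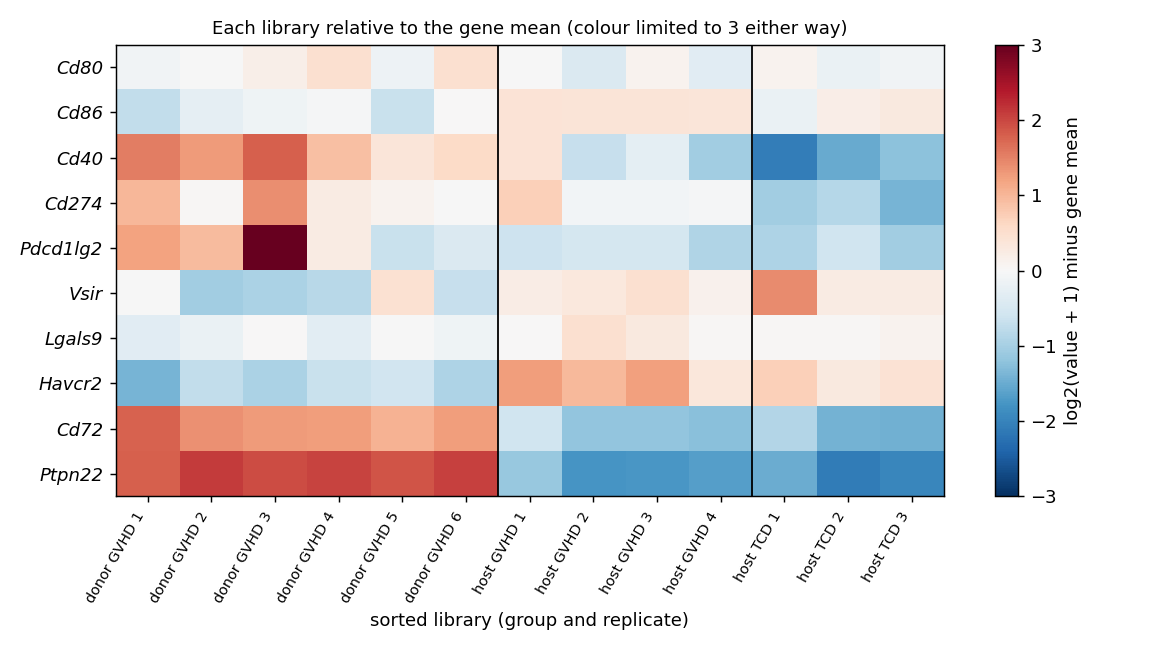
Deviation of log2(value + 1) from the gene's mean over the 13 sorted libraries (colour, limited to 3 either way), with genes in rows and libraries in columns, donor GVHD left of host GVHD and host TCD. Cd72 and Ptpn22 are evenly high across the 6 donor libraries, whereas Pdcd1lg2, Cd274 and Cd40 are highest in donor library 3.

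Vsir (chr10:60346851-60372684, plus strand), for the inhibitory receptor and ligand VISTA, was abundant in host microglia and lower in most donor libraries. Its normalised counts were 350 to 988 (median 425) in donor libraries, against 842, 899, 1002 and 788 in GVHD host libraries and 1936, 856 and 862 in TCD host libraries. Donor library 5 lay within the host range and TCD host library 1 far above all others, so donor and host groups overlapped. The log2 fold change of donor cells was -0.75 ± 0.27 against GVHD host cells (limma adjusted p 0.0458) and -1.06 ± 0.30 against TCD host cells (adjusted p 0.0146). The call against GVHD host cells was kept in 15 of 29 alternatives and ended with a block for the replicate number in the descriptions (-0.60, adjusted p 0.139). Leaving out the 13 libraries in turn ended it for 10 of them (donor 1, 2, 3, 4 and 6, GVHD host 2, 3 and 4, TCD host 2 and 3), with adjusted p-values of up to 0.135. The call against TCD host cells was kept in 26 of 29 alternatives and ended without TCD host library 1 (-0.81, adjusted p 0.0817), among the 10 libraries that share an API number (-0.86, adjusted p 0.0705) and with the description-number block (-0.92, adjusted p 0.0640). Vsir overlaps Cdh23 on the opposite strand, and whether the authors' counting used strand is not stated. Cdh23 averaged 5.13 ± 1.63 (SD, n = 6) in donor cells, 31.9 ± 2.28 (n = 4) in GVHD host cells and 49.1 ± 27.2 (n = 3) in TCD host cells, also lower in donor cells (-2.43 and -2.88 on the log2 scale).

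Galectin-9 and its receptor TIM-3 were both lower in donor macrophages than in GVHD host microglia, by different amounts. Lgals9 (chr11:78962974-78984946, minus strand) had normalised counts of 291 to 366 (median 327) in donor libraries, against 369, 511, 448 and 375 in GVHD host libraries and 376, 373 and 392 in TCD host libraries. Every donor library lay below every host library, though by a narrow margin. Donor cells had a log2 fold change of -0.38 ± 0.10 against GVHD host cells (adjusted p 0.00920 by limma), called in all 29 alternatives. Against TCD host cells it was -0.25 ± 0.11, an adjusted p of 0.104 by limma, and it was called only when libraries were rescaled to equal totals (-0.41, adjusted p 0.0110). GVHD host cells differed from TCD host cells by 0.14 on the log2 scale, with a 95% interval of -0.12 to 0.40.

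Havcr2 (chr11:46454935-46481255, plus strand) had the most negative log2 fold changes of the 10 in donor cells. Its normalised counts were 59.0 to 104 (median 87.3) in donor libraries, against 372, 306, 365 and 199 in GVHD host libraries and 256, 191 and 212 in TCD host libraries. Every donor library lay below every host library, and the GVHD and TCD host libraries overlapped through GVHD host library 4. The log2 fold change of donor cells was -1.82 ± 0.20 against GVHD host cells, 3.53-fold lower in donor cells (adjusted p 1.00e-05 by limma). Against TCD host cells it was -1.35 ± 0.22 (adjusted p 3.13e-04). Both calls held in all 29 alternatives. Between GVHD and TCD host cells the log2 difference was 0.46 with a 95% interval of -0.04 to 0.97, and it was not called (limma adjusted p 0.766). The summed microglia markers were lower in donor than in host cells, as were Havcr2, Cd86, Vsir and Lgals9, and their part was not tested. The marker Fcrls was an exception, at 929 to 2526 (median 1462) in donor libraries against 282 to 1471 (median 932) in GVHD host libraries and 1146 to 3525 in TCD host libraries. Between GVHD and TCD host cells the median log2 difference of the microglia markers was -0.16. There Havcr2, Cd86 and Lgals9 had positive and Vsir a negative log2 difference, none called.

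Cd72 and Ptpn22 were higher in every donor library than in any host library. Cd72 (chr4:43446462-43454628, minus strand) had normalised counts of 162 to 271 (median 191) in donor libraries, against 51.4, 34.2, 34.3 and 32.5 in GVHD host libraries and 42.7, 28.7 and 28.4 in TCD host libraries. The lowest donor library was far above the highest host library. The log2 fold change of donor cells was 2.43 ± 0.08 against GVHD host cells, 5.39-fold (adjusted p 2.59e-09 by limma), and 2.67 ± 0.09 against TCD host cells, 6.35-fold (adjusted p 3.80e-09). Library 1, the only one with its API number, was the highest of each of the 3 groups. In GVHD host library 1 the macrophage and monocyte markers also summed highest of that group, at 1065 against 529 to 700 in the remaining GVHD host libraries. Among the 10 libraries that share the other number the log2 fold changes were 2.44 against GVHD host cells and 2.67 against TCD host cells. Between GVHD and TCD host cells the log2 difference was 0.24 ± 0.09, with an unadjusted p of 0.0255 and a limma adjusted p of 0.646. Tesk1, which overlaps Cd72 on the opposite strand, was at 4.04 ± 1.11 (SD, n = 6) in donor cells, 2.22 ± 0.25 (n = 4) in GVHD host cells and 2.63 ± 0.22 (n = 3) in TCD host cells, far below Cd72 as normalised counts.

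Ptpn22 (chr3:103859795-103912247, plus strand) had normalised counts of 62.9 to 78.1 (median 72.1) in donor libraries, against 7.41, 4.42, 4.46 and 4.88 in GVHD host libraries and 5.54, 3.26 and 3.74 in TCD host libraries. The 6 donor libraries differed little among themselves, with a coefficient of variation of 7.86%, and none came near a host library. Donor cells had a log2 fold change of 3.56 ± 0.14 against GVHD host cells, 11.8-fold (adjusted p 5.79e-09 by limma), and 3.87 ± 0.15 against TCD host cells, 14.6-fold (adjusted p 1.18e-08). Both calls held in all 29 alternatives, with log2 fold changes of 2.91 to 3.78 against GVHD host cells. GVHD host cells differed from TCD host cells by 0.30 on the log2 scale, with a 95% interval of -0.05 to 0.66. Macrophage and monocyte markers were higher in donor than in host cells, as were Cd72, Ptpn22 and Cd40, and their part was not tested.

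**Figure D3:**
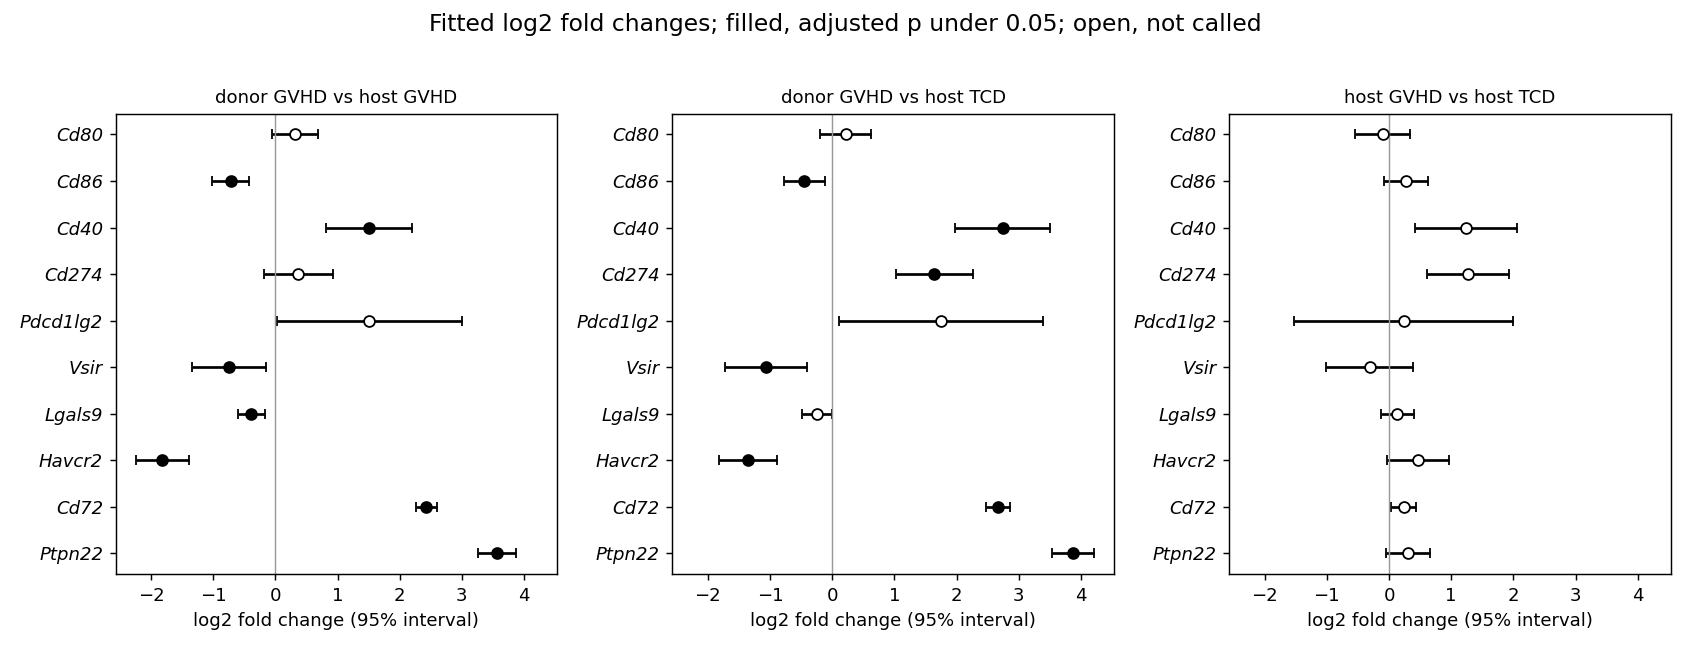
Fitted log2 fold changes (x axis) with 95% intervals for the 10 genes in the 3 comparisons of sorted cells, filled where the adjusted p was under 0.05 and open where it was not. Ptpn22, Cd72 and Cd40 lie right of 0 and Havcr2, Vsir and Cd86 left of it in both comparisons of donor cells, and no gene is filled between GVHD and TCD host cells.

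Between GVHD and TCD host microglia, all 10 members stayed uncalled, yet 3 of them had groups that did not overlap (Cd274, Cd40 and Cd86, each higher in GVHD hosts). Groups did not overlap for 6.55% of all tested genes. At an unadjusted p under 0.05, 3 members (Cd274, Cd40 and Cd72) passed where 6.85% of all tested genes did. The median log2 difference of the 10 was 0.25 against -0.03 over all tested genes, with 8 positive and 2 negative. T and NK cell markers summed to 13.6 to 43.7 in GVHD host libraries and 9.30 to 20.0 in TCD host libraries. The 9 astrocyte, oligodendrocyte and endothelial markers in the table (12 listed) summed to 376 to 494 in GVHD host libraries and 309 to 341 in TCD host libraries. Of these 1 was called, where 0.107% of all tested genes were. It was Aldh1l1, higher in GVHD hosts, at 4.65 ± 0.93 (SD, n = 4) in GVHD host cells against 0.69 ± 0.19 (n = 3) in TCD host cells (limma adjusted p 0.00873). The other 8 were not called, with log2 differences from -0.24 for Pecam1 to 0.50 for Gfap, and the part of such cells was not tested.

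Per exonic kilobase, the scale on which different genes may be compared, the members formed an abundant and a scarce group in host cells. In GVHD host microglia Cd86 (224 ± 2.85), Lgals9 (199 ± 31.5) and Vsir (176 ± 18.3) led, and Havcr2 followed (114 ± 29.4). Cd72 (11.1 ± 2.60), Cd274 (5.08 ± 1.65), Cd80 (4.01 ± 0.78) and Cd40 (3.24 ± 1.59) were far lower, and Ptpn22 (0.78 ± 0.21) and Pdcd1lg2 (0.17 ± 0.08) came last (SD, n = 4). Cd86 and Lgals9 lay within the larger SD of the pair, as did Lgals9 and Vsir, Cd274 and Cd80, and Cd80 and Cd40, while the remaining neighbours lay farther apart. In donor macrophages Lgals9 (153 ± 15.5), Cd86 (142 ± 30.3) and Vsir (109 ± 50.6) led, and Cd72 (59.0 ± 10.7) stood above Havcr2 (31.6 ± 5.88). Ptpn22 (10.5 ± 0.83), Cd40 (9.45 ± 3.68), Cd274 (6.76 ± 3.21), Cd80 (5.08 ± 1.07) and Pdcd1lg2 (3.23 ± 5.67) followed (SD, n = 6). Neighbours among the top 3 and from Ptpn22 downward did not differ beyond their spread. In TCD host microglia the means ran from 243 ± 124 for Vsir to 0.08 ± 0.10 for Pdcd1lg2 (SD, n = 3), in an order that put Vsir above Cd86 (184 ± 32.4) and Lgals9 (178 ± 4.76), again within their spread. That order rested on TCD host library 1, whose labels disagree, with Vsir at 386. In TCD host libraries 2 and 3 Vsir was at 170.8 and 171.9, below Cd86 (195.7 and 209.9) and Lgals9 (174.6 and 183.5).

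**Figure D4:**
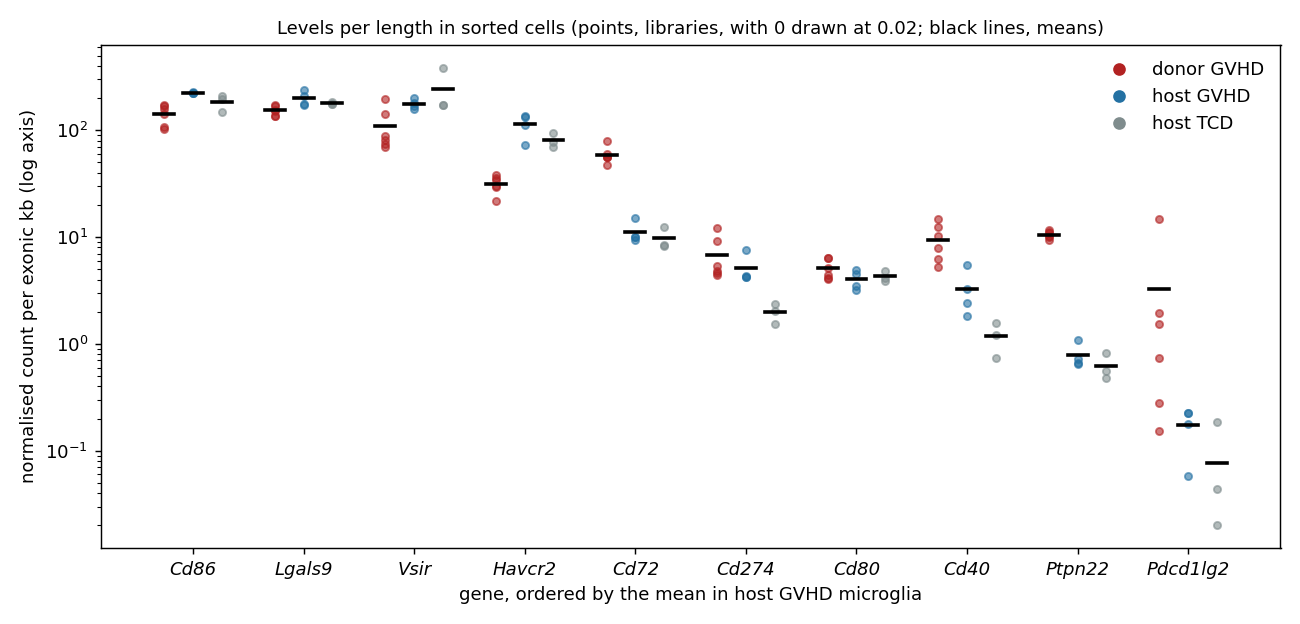
Normalised counts per exonic kilobase (y axis, logarithmic) of the 10 genes, ordered by their mean in GVHD host microglia, with points for libraries (0 drawn at 0.02) and black lines for group means. Cd72 and Ptpn22 sit much higher in donor cells than in host cells, while Cd86, Lgals9, Vsir and Havcr2 stay the most abundant in both host groups.

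The genes whose pattern over the 13 sorted libraries was most like each member's were named by Pearson's r of log2 values, among 8018 genes of a mean of at least 10, as a description in which all points share libraries and groups. Ptpn22 lay closest to Clec12a, Cyp4f18 and Hepacam2 (each r = 0.997), and Cd72 to Tmem51 (0.995), Myof (0.994) and Iqgap1 (0.994). Cd40 lay closest to Il2rg (0.975), Sp100 (0.974) and Pfkp (0.971). Cd274 lay closest to Cfb (0.942) and the guanylate-binding protein genes Gbp9 (0.923) and Gbp4 (0.919), whose reads the counting may have divided among near-identical copies. Pdcd1lg2 lay closest to Ass1 (0.975), Ifi205 (0.957) and Glipr2 (0.941), Cd86 to Atxn2 (0.985), Tle4 (0.973) and Ufl1 (0.972), and Vsir to Cep68 (0.989), Cttnbp2nl (0.984) and Tbc1d16 (0.984). Havcr2 lay closest to Zfp839 (0.977), Tirap (0.971) and Arsb (0.962), Lgals9 to Tceanc (0.896), Cep63 (0.884) and Ap5s1 (0.862), and Cd80 only to Ostm1 (0.819), Ccdc126 (0.792) and Rnft1 (0.785).

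Receptors of the CD28 family and related receptors, not all of which read a listed member, differed in both directions. Of 6 tested, 3 were higher and 3 lower in donor cells than in GVHD host cells. Across all tested genes 19.4% were higher and 19.2% lower in that comparison, the background for this and the following list counts. Pdcd1, for PD-1, was lower in donor cells, at 16.4 ± 7.002 (SD, n = 6) against 53.7 ± 8.28 (n = 4) in GVHD host cells, a log2 fold change of -1.71 ± 0.26. Icos, an inducible co-stimulator, was lower at 0.85 ± 0.77 in donor cells against 2.93 ± 0.62 in GVHD host cells. Lag3, an inhibitory receptor for MHC class II, was lower in donor cells than in TCD host cells (-2.25 ± 0.54 on the log2 scale), with 9.97 to 137 in donor libraries and 680, 94.6 and 76.1 in TCD host libraries. Cd28 itself, named after its values were seen, was called higher in donor cells but low everywhere, at 0.87 to 3.33 in donor libraries, 0.57 to 2.497 in GVHD host libraries and 0.42 to 1.51 in TCD host libraries.

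Among 7 tested B7 family ligands, 1 gene was higher and 2 were lower in donor cells than in GVHD host cells. The lower ones were the members Cd86 and Vsir. The higher one was Icosl, the ligand of ICOS, at 326 ± 120 (SD, n = 6) in donor cells against 193 ± 24.4 (n = 4) in GVHD host cells. Among 13 tested TNF family ligands and receptors of co-stimulation, 8 were higher, Cd40 among them, and 1 was lower. Tnfsf13, for APRIL, a survival factor of B and plasma cells, was at 31.8 ± 4.93 in donor cells against 1.26 ± 0.42 in GVHD host cells (3.89 ± 0.18 on the log2 scale). Tnfsf15, a ligand that co-stimulates T cells, was higher by 1.76 ± 0.23, and Tnfsf8, for CD30 ligand, was higher against TCD host cells by 1.89 ± 0.21. Of 10 tested TIM and galectin genes, 2 were higher and 2 lower, and the lower ones were the members Havcr2 and Lgals9. The higher ones were the galectins Lgals3, at 217 ± 104 in donor cells against 12.1 ± 2.25 in GVHD host cells, and Lgals1, at 50.7 ± 25.0 in donor cells against 6.56 ± 1.00 in GVHD host cells. Lgals9 differed in the opposite direction from both. Of 15 other inhibitory receptors and ligands 9 were higher and 3 lower, led by the lectin-like receptor gene Klra2 (5.68 ± 0.37), whose family has near-identical copies that make its value uncertain, and by Cd22 (1.93 ± 0.19), an inhibitory receptor best known from B cells.

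Of 8 tested genes of the CD72 and semaphorin list, 2 were higher in donor cells than in GVHD host cells, Cd72 itself among them, and 1 was lower. Sema4a, a class 4 semaphorin, was higher at 118 ± 93.6 (SD, n = 6) in donor cells against 10.6 ± 7.27 (n = 4) in GVHD host cells. Sema4d, which encodes the CD72 ligand, was at 169 to 540 in donor libraries and 201 to 300 in GVHD host libraries, a log2 difference of 0.25 ± 0.25 that was not called, and was named after its values were seen. Btk, a kinase of B cell and myeloid signalling, was lower (-0.38 ± 0.08 on the log2 scale), at 82.5 ± 7.68 in donor cells against 107 ± 7.31 in GVHD host cells. Of 14 tested genes of the PTPN22 list 6 were higher, Ptpn22 itself among them, and 1 was lower. The higher ones also held Pstpip1 (2.07 ± 0.19), an adaptor of the cytoskeleton, and the phosphatase gene Ptpn18 (0.68 ± 0.13). Of 15 CD40 signalling genes 5 were higher and 3 lower, with Traf1 (2.10 ± 0.36) and Birc3 (0.76 ± 0.13), both of the TNF receptor signalling complex, higher. Of 15 regulators of PD-L1, 2 were higher and 5 lower. Cmtm6, which keeps PD-L1 on the cell surface, was lower at 845 ± 59.7 in donor cells against 2298 ± 226 in GVHD host cells (-1.44 ± 0.10), and Spop, which takes part in PD-L1 degradation, was higher at 265 ± 34.7 in donor cells against 141 ± 16.8 in GVHD host cells.

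Against TCD host cells the lists, with the members they hold counted in, gave 2 higher and 2 lower B7 ligands, 3 and 3 receptors, and 9 and 0 TNF family genes. They gave 2 and 1 TIM and galectin genes, 9 and 3 other inhibitory genes, and 2 and 1 genes of the CD72 list. The remaining lists gave 5 and 1 genes of the PTPN22 list, 3 and 2 CD40 signalling genes, and 3 and 5 regulators of PD-L1. Across all tested genes 18.4% were higher and 18.6% lower. Tank, an adaptor of TRAF proteins, was higher there by 1.19 ± 0.18 on the log2 scale. In host microglia of GVHD against TCD mice no gene of the 9 lists was called. In that comparison Fgl2, a ligand of an inhibitory receptor, chosen after its values were seen, stood at 280 ± 140 (SD, n = 4) in GVHD host cells against 66.1 ± 26.7 (n = 3) in TCD host cells, with a limma adjusted p of 0.0726.

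In whole hippocampus no member was called, and 2 of the 6 tested (Cd86 and Cd274) passed an unadjusted p of 0.05, where 17.0% of all tested genes did. Cd86 had normalised counts of 2.86, 3.63 and 3.75 in GVHD hippocampus, against 1.98, 2.43 and 1.96 in TCD hippocampus. It was the 1 member of 6 whose groups did not overlap, where 24.0% of all tested genes did not. Its log2 difference was 0.50 ± 0.17, with an unadjusted p of 0.0156 and an adjusted p of 0.186 by limma. Cd274 was at 11.2, 9.54 and 9.56 in GVHD hippocampus, against 5.52, 10.2 and 2.69 in TCD hippocampus, so TCD library 2 lay within the GVHD range. Its log2 difference was 0.78 ± 0.34, with an unadjusted p of 0.0492 and an adjusted p of 0.292 by limma.

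Vsir was at 22.6, 24.7 and 23.1 in GVHD hippocampus, against 26.7, 21.97 and 20.6 in TCD hippocampus, and the 95% interval of its log2 difference ran from -0.23 to 0.29. Lgals9 was at 7.88, 7.55 and 7.22 in GVHD hippocampus, against 6.40, 8.67 and 6.05 in TCD hippocampus (-0.24 to 0.44). Havcr2 was at 4.54, 3.52 and 4.11 in GVHD hippocampus, against 5.41, 3.68 and 2.94 in TCD hippocampus (-0.42 to 0.50). All 3 overlapped between groups. Cd72 was at 1.70, 0.82 and 1.05 in GVHD hippocampus, against 0.75, 1.04 and 1.84 in TCD hippocampus (-0.57 to 0.57). Ptpn22, not tested, was at 1.46, 1.70 and 0.70 in GVHD hippocampus, against 0.81, 0.53 and 0.43 in TCD hippocampus, so its groups overlapped through GVHD library 3.

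The median log2 difference of the 6 tested members was 0.07 against 0.005 over all tested genes. Macrophage and monocyte markers (7 of 10 in the table) summed to 52.4 to 238 in GVHD hippocampus and 17.6 to 53.6 in TCD hippocampus. Microglia markers summed to 333 to 455 in GVHD hippocampus and 420 to 487 in TCD hippocampus. The T and NK cell markers Cd8a and Nkg7 (2 of 14 in the table) summed to 1.94 to 3.46 in GVHD hippocampus and 0.24 to 1.16 in TCD hippocampus. These low sums did not overlap, where 24.0% of all tested genes did not, and the 1 marker tested was not called. Choroid plexus markers summed to 1066 to 3735 in GVHD hippocampus and 29.9 to 109 in TCD hippocampus. The part of tissue composition in the member values was not tested. Over the 9 lists 1 gene was called in hippocampus, where 0.479% of all tested genes were. It was Fgl2, at 10.8, 13.9 and 8.39 in GVHD hippocampus against 4.65, 4.16 and 3.24 in TCD hippocampus. Its log2 difference was 1.24 ± 0.19, with a limma adjusted p of 0.0414. In sorted cells Fgl2 was at 500 to 968 in donor libraries, 156 to 481 in GVHD host libraries and 37.2 to 89.9 in TCD host libraries, with no overlap among the 3 groups.

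**Figure D5:**
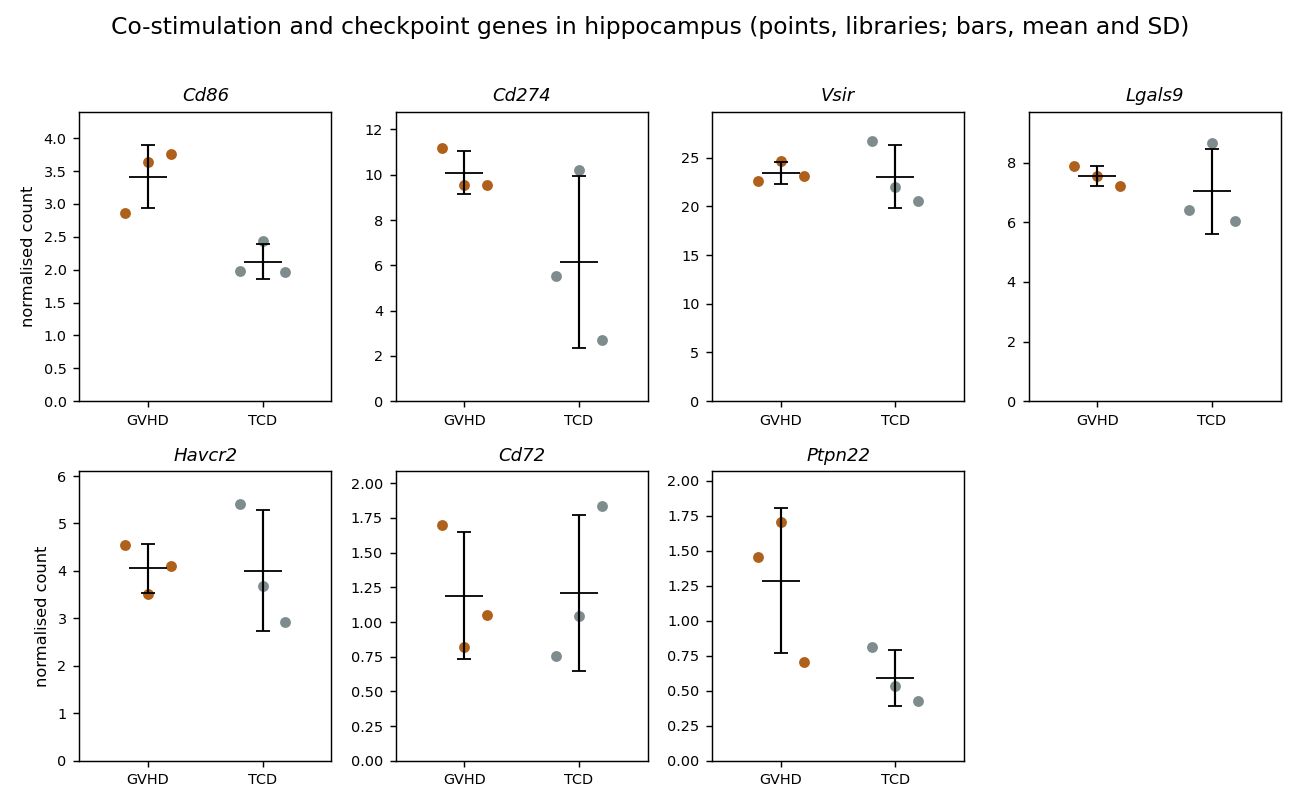
Normalised counts (y axis, from 0) of the 7 members listed in hippocampus, GVHD left of TCD, with a point per library and bars for mean and SD. Cd86 is the only member with all 3 GVHD libraries above all 3 TCD libraries, and Cd274 in TCD hippocampus is spread from 2.69 to 10.2.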

How the data were processed

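RNA was measured in 6 hippocampus and 13 sorted-cell libraries. Each deposited value is a normalised count, handled here as a signal because neither the scaling nor the annotation release is given in the sources used here. The submitters' processing notes name cutadapt 1.9, STAR 2.5.2a, RSEM 1.2.30 and the build GRCm38. The labels' protocols name a pair of column kits for RNA without saying which sample had which. Library totals were 982114.4 to 1078635.6 in hippocampus and 890564.5 to 1090630.5 in sorted cells. Among the low nonzero values of a library, between 68.0% and 81.8% were whole multiples of its estimated step for 1 read (tolerance 0.02). High values were not covered by that share. Whole reads were thus not recovered, no count test was run, and read numbers are estimates.

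Gene symbols came from GENCODE M21, with 192 hippocampus and 213 sorted-cell identifiers unmatched. Genes entered a test if at least 3 libraries of the table reached a value of 1, which left 14404 in hippocampus and 13086 in sorted cells. Values were compared as log2(value + 1) by limma 3.58.1 under R 4.3.3, using its trended variance and two-sided tests, with Benjamini-Hochberg adjustment over every gene tested, and were called at an adjusted p under 0.05. All 13 sorted libraries shared 1 fit, with the API number of the title as a covariate. Library 1 of each sorted group is alone with its API number, so that number gives no value of its own. The fits were tested on simulated data. The members and lists were chosen with earlier results of these data known. Besides the members, up to 2 called genes of each list with the smallest p in each comparison were eligible to be named, and other names are marked as chosen after their values were seen. Alternatives covered pseudocounts of 0.1 and 5, filters, rescaling, weights, GC content, replicate blocks, the API number and leaving out each library.

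As a check of pairing, deviations from group means were correlated between libraries of the same number. For donor with GVHD host libraries, description numbers gave 0.394, 0.362, 0.166 and 0.280 and title numbers 0.394, 0.170, -0.0216 and 0.0159. For donor with TCD host libraries, title numbers gave 0.585, 0.308 and 0.415 and description numbers 0.585, 0.160 and -0.517. Every pair passed 0.1 by description number in the first comparison and by title number in the second. By description number, each paired donor library correlated more with the GVHD host library of its number than with any other GVHD host library. By title number this held for donor libraries 1 and 2 and not for 3 and 4. The API number was not removed before correlating, so the pairs of library 1 also share that number. By title number, donor library 2 correlated more with another TCD host library than with library 2. Fits with either block are given beside the member calls they change. The labels do not say that a number marks 1 mouse, and donor and TCD host libraries come from different transplant groups. Title numbers did not pair hippocampus libraries (-0.163, -0.0403 and -0.183) or GVHD with TCD host libraries (0.222, -0.0157 and -0.017). Some genes of the lists are not reported here.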

Additional observations from a re-analysis of the deposited data

Results flagged for a closer look

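Among the 20 groups of 4 to 6 libraries tested for a library that stands apart, 2 were picked out, both in host microglia of GVHD mice, and chance alone picks out about 1 in 20 groups. Cd274 in GVHD host library 1 was at a normalised count of 27.4, the highest of 4, with a gap to the next library of 0.960 of the group's range. Cd72 in the same library was at 51.4, the highest of 4, with a gap of 0.883 of the range. This library is the only one of its group with its API number and had the highest T and NK cell markers in it, at a summed 43.7, and the highest macrophage and monocyte markers, at a summed 1065.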

How the results depend on the processing

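The count of members called was 6 to 8 for donor against GVHD host cells and 5 to 8 for donor against TCD host cells over 29 alternatives each, and 0 in hippocampus over 18 alternatives. For GVHD against TCD host cells it was 0 except without donor library 3, where it was 1 (Cd274), so leaving out a library gave 0 to 1. Counts over all genes ran from 0 to 990 in hippocampus (69 as reported, 16 with a replicate block), 4099 to 5900 for donor against GVHD host cells (5052), 0 to 28 for GVHD against TCD host cells (14, and 2 or 0 with a block by title or description number) and 3620 to 5800 for donor against TCD host cells (4845). With a replicate block the members called were 8 (title numbers) and 6 (description numbers) for donor against GVHD host cells, 7 and 5 for donor against TCD host cells, and 0 for GVHD against TCD host cells and in hippocampus. Apart from Vsir, Cd86 and Pdcd1lg2, no member call changed with a block. With equal library totals the median log2 fold change of all genes was -0.119 (0.044 as reported) for donor against GVHD host cells, with 1830 higher and 3640 lower calls (2533 and 2519 as reported), and -0.151 (-0.006) for donor against TCD host cells, with 1870 and 3401 (2408 and 2437). All member calls of both comparisons kept their direction there. In hippocampus 59 genes were higher and 14 lower with equal totals and 30 and 9 with quantile normalisation, against 46 and 23 as reported. Besides the changes given with the results, Vsir in donor against GVHD host cells lost its call with quantile normalisation, without the variance trend and without the API covariate. Cd86 in donor against TCD host cells lost its call with quantile normalisation, without the API covariate and among the 10 libraries that share an API number. Pdcd1lg2 was called without donor library 5 in both donor comparisons, with a pseudocount of 0.1 (3.54) and with array weights against TCD host cells, and with title blocks in both. Cd80 was called with array weights in donor against GVHD host cells. The values that changed sign were never called. In hippocampus Cd72 was 0.005 with a pseudocount of 0.1, 0.036 with equal totals, 0.151 with array weights and 0.069 with a GC correction, with or without a replicate block, and -0.164 to 0.191 with a library left out. There Havcr2 was -0.081 with quantile normalisation and -0.017 with a GC correction, with or without the block, and -0.121 to 0.231 with a library left out, Lgals9 was -0.035 with array weights, and Vsir was -0.045 to 0.136 with a library left out. Between GVHD and TCD host cells Vsir was 0.054 among the 10 libraries that share an API number and Pdcd1lg2 was -0.148 with the description block. The cause was not tested. Low values, such as those of Pdcd1lg2 in host cells and Cd72 in hippocampus, are limited by depth.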
